A study of Bos taurus with 8 samples.

Results

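The antioxidant and selenoprotein genes described here were SEPP1, GPX1, GPX4, TXN, TXNRD1, SRXN1, PRDX1, PRDX2, SOD1 and SOD2 in cells of the bovine blastocyst, the embryo that has just formed its first separate lineages. They were taken by gene symbol, as 10 of the 15229 genes with a symbol on the array, and all 10 were found, on 14 probes. The genes were chosen after earlier log2 ratios of the inner cell mass (ICM) over the trophectoderm (TE) of these same arrays were known, so their ICM over TE ratios are a description of these pools, with no test. The study asked how the transcriptome of the ICM differs from that of the TE, the outer epithelium, in embryos that grew in the cow. Blastocysts were flushed 7.5 days after insemination from superovulated Holstein cows, and the tissues were parted with a micro scalpel, followed by antibody and complement to lyse the TE cells around the ICM. Each sample was RNA from a pool of ICM or a pool of TE, amplified by T7 in vitro transcription before labelling, and 4 pool pairs were each hybridized on 2 arrays with Cy3 and Cy5 exchanged, which gave 8 arrays. Only the fragments that held the ICM were incubated in antibody and complement, while the TE came from pieces cut off before. The part of this handling in the ratios was not tested. Apart from it, neither group carried a treatment or an allele that the other lacked. The labels do not say whether different pools came from different cows.

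Cells form superoxide and hydrogen peroxide when they respire and fold proteins. Superoxide dismutases turn superoxide into hydrogen peroxide, and glutathione peroxidases and peroxiredoxins reduce the peroxide with electrons that glutathione or thioredoxin brings. Selenoproteins carry selenium as selenocysteine, an amino acid inserted at a UGA codon that is read through with the help of an element in the messenger RNA, and SEPP1, GPX1, GPX4 and TXNRD1 belong to them. Early embryos are known to be sensitive to oxidants, and cattle embryos are often cultured at reduced oxygen for that reason.

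The text speaks of RNA labelled ICM and RNA labelled TE, because the direction that the dye labels give runs opposite to that of the study. NANOG, the pluripotency factor of the epiblast, had a log2 ratio of -3.50 for RNA labelled ICM over RNA labelled TE, and the trophoblast genes TFAP2A (2.05), ENPEP (1.72) and GATA3 (0.82) were higher in RNA labelled ICM. The mean log2 intensity of 13 trophoblast markers was 11.81 to 12.11 in the pools labelled ICM and 10.76 to 11.05 in those labelled TE, and that of 8 epiblast markers was 10.02 to 10.42 in the pools labelled ICM and 11.49 to 11.88 in those labelled TE. Of the trophoblast markers 10 were called higher and 0 lower, and of the epiblast markers 0 were called higher and 5 lower. If the channels had been exchanged, every sign below would turn. Of 5 hypoblast markers 0 were called and none had a positive ratio, with HNF4A at -2.74 (adjusted p = 0.0102) and PDGFRA at -1.73 (adjusted p = 0.0174), both named after their values were seen, and 3 were lower at an unadjusted p under 0.05. Their mean log2 intensity was 9.24 to 9.72 in the pools labelled ICM and 10.43 to 10.63 in those labelled TE. Among 5 leukocyte genes CD68 alone passed (-1.55), none of 4 red blood cell, 6 uterine epithelium or 4 cumulus genes did, and 5 of the 6 uterine genes lay under the background limit on every channel. The part of these cells in the values of the antioxidant genes was not tested. Between 48.2% and 65.6% of all probes exceeded the background limit per channel, which is the mean of 153 negative control spots plus 2 SD. All 14 probes of the antioxidant genes exceeded it on every channel, and none reached the top of the scanner's range.

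Among the antioxidant genes, the secreted selenoprotein SEPP1 and the peroxiredoxin repair enzyme SRXN1 had the largest ratios, 3.84-fold and 3.46-fold higher in RNA labelled ICM. TXN and GPX4 followed at 1.71-fold and 1.55-fold, and the other 6 genes lay within 0.5 log2 units of 0. PRDX1, PRDX2, SOD1 and SOD2 had negative mean ratios. In the limma fit across all probes, 3 of the 10 genes (SEPP1, SRXN1 and TXN) were called higher, that is, with a Benjamini-Hochberg adjusted p of 0.01 or less, where 3.35% of all genes were, and 0 were called lower, where 1.92% of all genes were. At an unadjusted p under 0.05, 5 of the 10 were higher and 3 lower, where 15.6% of all genes were higher and 14.4% lower. By probe, 3 of 14 were called higher and 0 lower, against 1.92% and 1.35% of all probes. The shares of all genes and all probes also count those under the background limit, while all 14 probes exceeded it. With only the 19831 probes above the limit, 2810 were called, 54.0% of them higher, against 1433 of all 43794 probes. In that setting 3 of the 10 genes were called higher and 1 (PRDX2) lower. Since the genes were chosen on this same contrast, nothing is read from these counts. In bulk RNA, fewer cells of a type and less RNA per cell cannot be told apart.

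**Figure D1:**
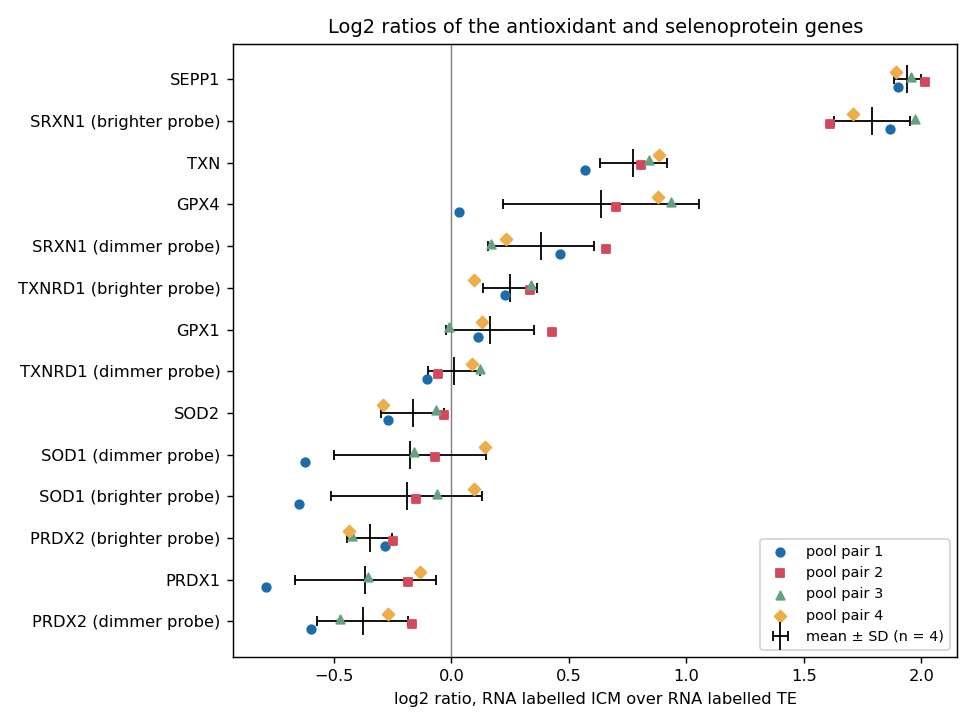
Log2 ratio of RNA labelled ICM over RNA labelled TE (x axis) for each of the 14 probes (rows, sorted by mean), with a point for each of 4 pool pairs and a bar for the mean ± SD. The points of SEPP1 and SRXN1's brighter probe all lie above 1.6, and pool pair 1 is the lowest for GPX4, PRDX1 and both probes of SOD1.

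SEPP1 encodes selenoprotein P (SELENOP in the current nomenclature), which carries selenium to other cells in many selenocysteines. Its normalized log2 intensity was 14.39, 14.08, 14.24 and 14.04 in ICM-labelled pools 1 to 4, and 12.49, 12.07, 12.28 and 12.15 in TE-labelled pools 1 to 4. The lowest pool labelled ICM lay above the highest pool labelled TE by more than the range within either label. The log2 ratio was 1.90, 2.01, 1.95 and 1.89 in the 4 pairs, which gave 1.94 ± 0.06 (SD, n = 4), positive on 8 of 8 arrays. The size of this ratio exceeded that of 99.9% of all probes, while its SD lay at the 36.6th percentile of all probes. Both ranks count probes under the background limit, and an offset added in the background correction shrinks the ratios of dim probes.

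GPX4, the glutathione peroxidase that reduces lipid hydroperoxides in membranes, was uneven across the pool pairs. Its log2 intensity was 12.34, 12.44, 12.74 and 12.43 in ICM-labelled pools 1 to 4, against 12.30, 11.74, 11.81 and 11.55 in TE-labelled pools 1 to 4. Its ratio was 0.03, 0.70, 0.93 and 0.88 in the 4 pairs, with a mean of 0.64 ± 0.42 (SD, n = 4), and it was positive on 7 of 8 arrays. Pair 1 was the lowest, with pools of nearly the same intensity under both labels, and without that pair the mean was 0.84. The SD of GPX4 lay at the 97.8th percentile of all probes, a rank that also counts probes under the background limit. GPX4 was not called in the fit of the pair means, and it was called with the replicate number as a block over the 8 arrays. It was also called without pair 1, but leaving out the lowest pair raises the mean by construction. Without pair 2, 3 or 4 it was not called, and neither was any other probe.

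GPX1, the cytosolic glutathione peroxidase, had log2 ratios of 0.11, 0.43, -0.01 and 0.13, and a mean of 0.16 ± 0.19 (SD, n = 4). It was positive on 5 of 8 arrays, and its pools overlapped, at log2 intensities of 9.80 to 10.08 for RNA labelled ICM and 9.52 to 9.97 for RNA labelled TE. The spread between pairs was larger than the mean. Among SEPP1, GPX1, GPX4 and TXNRD1, each taken by its brightest probe, GPX1 had the lowest mean ratio and SEPP1 the highest.

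**Figure D2:**
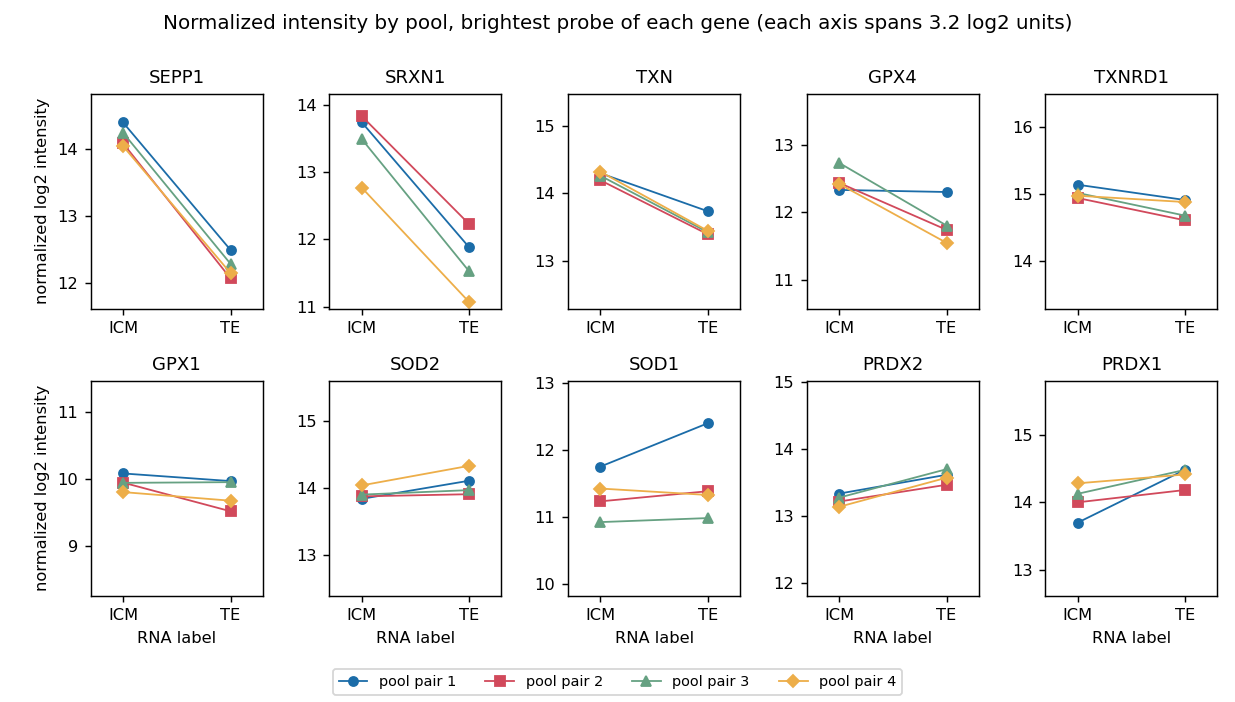
Normalized log2 intensity (y axis, each spanning 3.2 units) in RNA labelled ICM (left) and RNA labelled TE (right) for the brightest probe of each of the 10 genes, with a line for each of 4 pool pairs. The lines of SEPP1, SRXN1 and TXN all descend, that of GPX4 in pair 1 is flat, and those of PRDX2 and SOD2 all ascend.

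TXN, thioredoxin, gives electrons to peroxiredoxins and to many other proteins. Its log2 intensity lay between 14.20 and 14.32 in the pools labelled ICM and was 13.73, 13.39, 13.42 and 13.44 in TE-labelled pools 1 to 4. The ratio was 0.57, 0.81, 0.84 and 0.88 in the 4 pairs, which gave 0.77 ± 0.14 (SD, n = 4), positive on 8 of 8 arrays. The labels did not overlap, and pair 1, whose pool labelled TE was the brightest of its label, gave the lowest ratio.

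TXNRD1, itself a selenoprotein, reduces thioredoxin again in the cytosol with NADPH. Its brighter probe had ratios of 0.23, 0.33, 0.34 and 0.09, a mean of 0.25 ± 0.11 (SD, n = 4), and was positive on 7 of 8 arrays. Its dimmer probe had -0.10, -0.06, 0.12 and 0.09, a mean of 0.01 ± 0.11, and its sign changed in 3 of 16 alternative settings. The dimmer probe measured 1.33 to 2.27 times the background limit, and the brighter one 90.7 to 344 times. TXN and the brighter probe of its reductase thus both had positive ratios in every pair, with that of TXN the larger in each.

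SRXN1, sulfiredoxin, repairs peroxiredoxins whose active cysteine has been overoxidized. On its brighter probe the log2 intensity was 13.75, 13.84, 13.50 and 12.77 in ICM-labelled pools 1 to 4, against 11.88, 12.23, 11.53 and 11.07 in TE-labelled pools 1 to 4. Levels of both labels moved together across the pools, being lowest in pair 4, so that the ratio varied less than either level. Both levels were read from the same spots and share the effects of the array, whose part in this was not tested. The ratio was 1.87, 1.61, 1.97 and 1.71 in the 4 pairs, with a mean of 1.79 ± 0.16 (SD, n = 4), positive on 8 of 8 arrays.

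The dimmer SRXN1 probe had ratios of 0.46, 0.66, 0.17 and 0.23, a mean of 0.38 ± 0.22 (SD, n = 4), and was also positive on 8 of 8 arrays. It ran below the brighter probe in every pair, by 1.41 ± 0.35 log2 units. Its signal was 1.10 to 2.32 times the background limit, against 13.5 to 98.7 times for the brighter probe. The offset added in the background correction shrinks ratios of dim probes. With plain background subtraction, which adds no offset, the dimmer probe had a mean ratio of 0.63 and the brighter one 1.83. The cause of the gap between the probes was not tested.

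PRDX1 and PRDX2 are cytosolic peroxiredoxins that reduce hydrogen peroxide with electrons from thioredoxin, and they are substrates of sulfiredoxin. Their mean ratios lay on the other side of 0 from those of SRXN1 and TXN. PRDX1 had -0.79, -0.18, -0.36 and -0.13 in the 4 pairs, a mean of -0.37 ± 0.30 (SD, n = 4), and its labels overlapped, at 13.70 to 14.29 for RNA labelled ICM and 14.19 to 14.49 for RNA labelled TE. The brighter PRDX2 probe had -0.28, -0.25, -0.42 and -0.43, a mean of -0.35 ± 0.10, and its labels did not overlap, at 13.14 to 13.34 for RNA labelled ICM and 13.47 to 13.70 for RNA labelled TE. The dimmer PRDX2 probe had -0.60, -0.17, -0.48 and -0.27, a mean of -0.38 ± 0.19. All 4 pairs were below 0 on each of these probes, and 7 of 8 arrays were.

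The superoxide dismutases were close between the labels. SOD2, the manganese enzyme of mitochondria, had ratios of -0.27, -0.03, -0.07 and -0.29, a mean of -0.17 ± 0.13 (SD, n = 4), and was below 0 on 7 of 8 arrays. SOD1, the copper and zinc enzyme of the cytosol, had -0.65, -0.15, -0.06 and 0.10 on its brighter probe, a mean of -0.19 ± 0.32, and -0.62, -0.07, -0.16 and 0.14 on its dimmer probe, a mean of -0.18 ± 0.32. Both SOD1 probes followed the same order at the extremes, with pair 1 lowest and pair 4 highest, and differed by at most 0.10 in any pair. The SDs of SOD1 exceeded its means, and its labels overlapped.

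By mean ratio the 10 genes stood in the order SEPP1, SRXN1, TXN, GPX4, TXNRD1, GPX1, SOD2, SOD1, PRDX2 and PRDX1, each taken by its brightest probe. Only 2 steps of this order held in all 4 pairs: SRXN1 exceeded TXN by 1.01 ± 0.24 (SD) log2 units, and GPX1 exceeded SOD2 by 0.33 ± 0.19. SEPP1 exceeded SRXN1 in 3 of 4 pairs, by 0.15 ± 0.19, so these genes could not be ranked. PRDX2 exceeded PRDX1 in only 1 of 4 pairs, with a mean difference of 0.02 ± 0.34, so these could not be ranked either. Across the genes the median ratio was 0.21, beside 0.01 over all genes. Pair 1 gave the lowest ratio for 7 of the 14 probes and the highest for 0, where over all probes it was lowest for 24.7% and highest for 26.3%. Pair 2 gave the highest ratio for 6 of the 14 probes and the lowest for 1, where over all probes it was highest for 19.8% and lowest for 20.2%.

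The effect of the dye, Cy5 over Cy3, was a measure that had no part in the choice of the genes. SRXN1's brighter probe averaged 1.56 where ICM was in Cy5 and 2.02 where it was in Cy3 (4 arrays each), a Cy5 over Cy3 effect of -0.23 (limma, adjusted p = 0.0084). It was the only one of the 14 probes whose dye effect passed, where 3.40% of all probes did. That share also counts probes under the background limit. SEPP1 averaged 2.01 with ICM in Cy5 and 1.87 with ICM in Cy3, and TXN 0.81 and 0.73. The brighter PRDX2 probe averaged -0.57 with ICM in Cy5 and -0.12 with ICM in Cy3, and its dye effect of -0.22 did not pass (adjusted p = 0.0168). The ratios of SEPP1, SRXN1 and TXN were positive in both orientations, and that of the brighter PRDX2 probe was negative in both. These are parts of the same ratios on which the genes were chosen, so their signs are a description and no separate support.

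**Figure D3:**
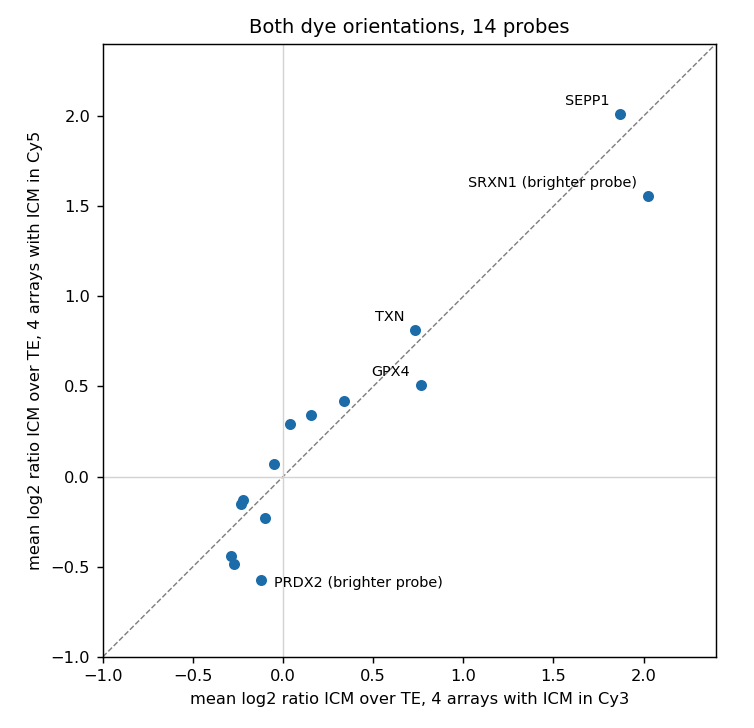
Mean log2 ratio of RNA labelled ICM over RNA labelled TE for each of the 14 probes with ICM in Cy5 (y axis) against those with ICM in Cy3 (x axis), 4 arrays each, with a dashed line of equality. SRXN1's brighter probe lies below the line at 1.56 against 2.02, and SEPP1 lies near it at 2.01 against 1.87.

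The genes whose ratios over the 4 pairs lay nearest to those of SEPP1 and SRXN1 were sought among 8754 genes above the background limit, by root mean square distance in log2 units. FLVCR2, a membrane transporter, was nearest to both, at 0.136 to SEPP1 and 0.118 to SRXN1. UNC13D, which acts in granule exocytosis, lay 0.140 and TFAP2A, a transcription factor of trophoblast, 0.169 from SEPP1. TMEM125 lay 0.147 and ENPEP, a surface aminopeptidase found on trophoblast, 0.153 from SRXN1. TFAP2A had ratios of 2.19, 2.16, 1.89 and 1.98 in pairs 1 to 4, against 1.90, 2.01, 1.95 and 1.89 for SEPP1.

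Other redox genes were described in 7 lists by function, which held 139 measured genes besides the 10. Of these, 6 were called higher (4.32%) and 4 lower (2.88%), beside 3.35% and 1.92% of all genes, and their median log2 ratio was 0.03. Here and below, the lists and all genes both include genes under the background limit, in shares that were not matched. The list of NRF2 control and its other targets held 4 of those called higher and 2 of those called lower. The rest came from different lists, and the called genes did not share a direction. The counts depended on how the arrays entered the fit: with the replicate number as a block over 8 arrays 23 were called higher and 10 lower, and without any 1 pair at most 1 in either direction. The block fit took the arrays of a pair as nearly independent (within-pair correlation 0.036). MGST3 and AKR1B1 were called without pair 1, and no list gene was called without pair 2, 3 or 4.

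Among 21 further selenoproteins 1 was called higher and 0 lower, with 4 higher and 1 lower at an unadjusted p under 0.05, where 15.6% of all genes were higher and 14.4% lower. The one called was GPX6, a glutathione peroxidase, with a log2 ratio of 0.76 ± 0.06 (SE), positive on 8 of 8 arrays (adjusted p = 0.00573), on 1 of its 2 probes. None of 8 genes for selenocysteine synthesis and selenium uptake was called, and 1 was higher and 1 lower at an unadjusted p under 0.05 (15.6% and 14.4% of all genes). The smallest p in that list belonged to SEPHS1, a selenophosphate synthetase paralog, at -0.28 (adjusted p = 0.0518). The next was LRP8, the receptor that takes up SEPP1 in brain and testis of mice, at 0.26 (adjusted p = 0.0967). Beside the large ratio of SEPP1, the genes that make selenocysteine or take up selenium thus lay between -0.28 and 0.26.

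Of 10 other peroxidases and enzymes of superoxide removal, 0 were called higher and 1 lower, where 3.35% and 1.92% of all genes were. At an unadjusted p under 0.05, 5 were higher and 1 lower (15.6% and 14.4% of all genes). PRDX4, the peroxiredoxin of the endoplasmic reticulum, was lower in RNA labelled ICM, at -0.35 ± 0.03 (SE), on 8 of 8 arrays (adjusted p = 0.00725), a ratio close to those of PRDX1 and PRDX2. It was called in 7 of 16 alternative settings, with adjusted p up to 0.461, and lost its call with plain background subtraction, with the deposited ratios and with spot medians. Values of the other peroxiredoxins, looked up after those of PRDX4 were seen, had the opposite sign without passing: 0.57 for mitochondrial PRDX3 (adjusted p = 0.0353), 0.34 for PRDX5 (adjusted p = 0.0888) and 0.16 for PRDX6 (adjusted p = 0.0944). In the thioredoxin and glutaredoxin system 4 of 17 genes were higher and 1 lower at an unadjusted p under 0.05 (15.6% and 14.4% of all genes). There, 1 gene was called higher and 0 lower, where 3.35% and 1.92% of all genes were. It was MSRB3, which reduces oxidized methionine, at 0.50 ± 0.04 (SE, adjusted p = 0.00477). It passed on 1 of its 3 probes, and exceeded the background limit on 8 channels labelled ICM and 3 labelled TE. Its ratio lay between 0.45 and 1.17 over 16 alternative settings, so its size is uncertain.

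Of 29 genes of glutathione synthesis and transfer, 0 were called higher and 1 lower, where 3.35% and 1.92% of all genes were. At an unadjusted p under 0.05, 7 were higher and 3 lower (15.6% and 14.4% of all genes). MGST3, a microsomal glutathione transferase with peroxidase activity, had a log2 ratio of -1.44 ± 0.07 (SE), between -1.68 and -1.30 in the 4 pairs (adjusted p = 0.00262). NRF2 is the transcription factor that drives many antioxidant genes, among them TXNRD1 and SRXN1 in mouse and human cells. Of 32 genes of NRF2 control and its other targets, 4 were called higher and 2 lower, where 3.35% and 1.92% of all genes were. At an unadjusted p under 0.05, 11 were higher and 5 lower, where 15.6% and 14.4% of all genes were. The lists were chosen with earlier results known, so nothing is read from these counts.

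AKR1B1, an aldose reductase, was higher in RNA labelled ICM at 1.23 ± 0.08 (SE, adjusted p = 0.00386), and ABCC2, an exporter of glutathione conjugates, at 1.08 ± 0.09 (SE, adjusted p = 0.00573). HMOX2, the constitutive heme oxygenase, which the NRF2 list holds beside HMOX1, was at 0.71 ± 0.06 (SE, adjusted p = 0.00696). Whether NRF2 controls HMOX2 was not tested. AKR1B1 passed on 1 of its 2 probes. PGD, which yields NADPH in the pentose phosphate pathway, was lower at -0.99 ± 0.07 (SE, adjusted p = 0.00463) and TKT, a transketolase, at -1.22 ± 0.10 (SE, adjusted p = 0.00617), which passed on both of its 2 probes. TALDO1, a transaldolase named after its values were seen, was higher at 0.67 ± 0.07 (SE, adjusted p = 0.00935) on 1 of its 6 probes, and was not called by the mean of its probes.

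HMOX1, the inducible heme oxygenase and also named after its values were seen, had a larger ratio with more spread, -1.76 ± 0.81 (SD, n = 4), and was not called (adjusted p = 0.0400). Its ratios lay between -2.67 and -0.74 in the 4 pairs, below 0 on 8 of 8 arrays. NFE2L2, which encodes NRF2, was at 0.13 (adjusted p = 0.154) and its inhibitor KEAP1 at 0.03 (adjusted p = 0.807). Of 22 oxidant-producing enzymes 0 were called in either direction, with 2 higher and 2 lower at an unadjusted p under 0.05, again beside 15.6% and 14.4% of all genes. The smallest p there belonged to ERO1L, the oxidase of disulfide formation, at 0.63 (adjusted p = 0.0242), and AOX1, aldehyde oxidase, at 0.48 (adjusted p = 0.0250).

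**Figure D4:**
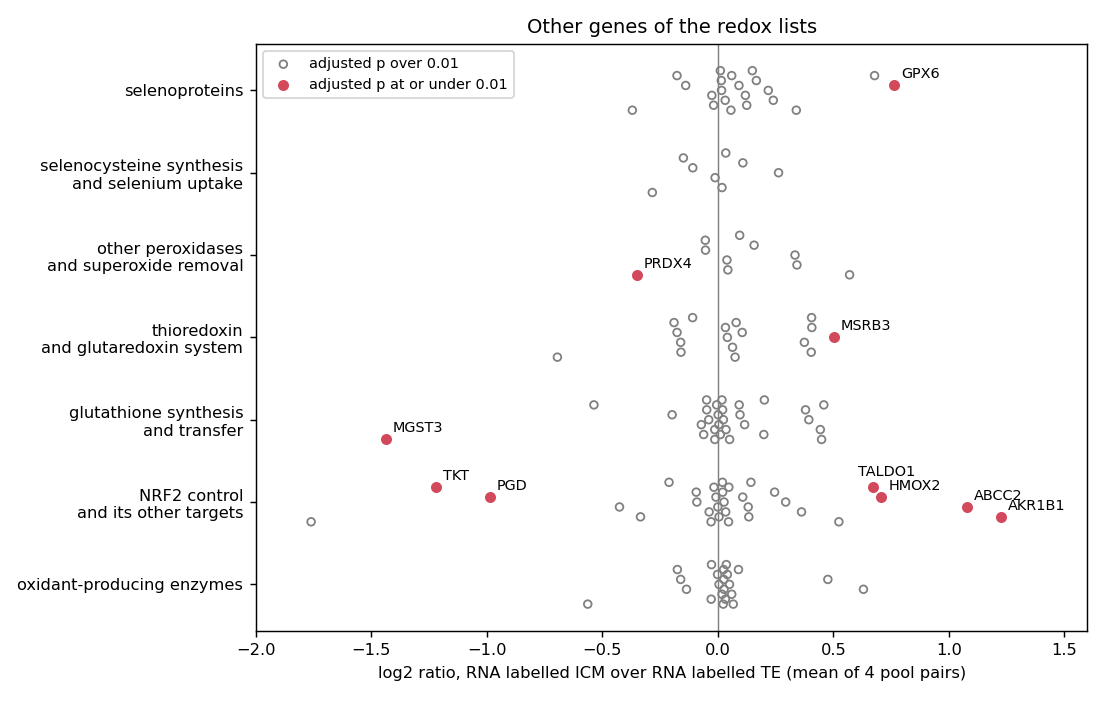
Log2 ratio of RNA labelled ICM over RNA labelled TE (x axis, mean of 4 pool pairs) for the 139 genes of the 7 redox lists (rows), with filled points for those with an adjusted p of 0.01 or less and open points for the others. The 10 filled points lie on both sides of 0, with MGST3 at -1.44 and AKR1B1 at 1.23 at the ends, and the open point at -1.76 is HMOX1.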

How the data were processed

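The authors deposited raw spot and local background intensity of both channels of 8 two-color arrays, from feature extraction software. They also deposited a table of log2 ratios, made by subtracting background and normalizing (loess, quantile), whose scale, centring and direction are not stated. Its columns followed Cy5 over Cy3 (r across probes between 0.522 and 0.792), had medians from -0.0257 to 0.00451, and served only as an alternative.

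Mean spot intensities were corrected with normexp (offset 50) and normalized with loess and Aquantile. Control spots had weight 0 in loess, and ignored spots (at most 47 an array) were left out. The log2 ratio of ICM label over TE label was averaged over both arrays of a replicate number. These 4 pair means were fitted in limma 3.58.1 (R 4.3.3; lmFit, eBayes, null value 0) and adjusted by Benjamini-Hochberg over 43794 probes, of which 1433 had an adjusted p of 0.01 or less ("called"). Dye effects were fitted likewise on differences between the arrays of a number. Arrays of the same number, which share their RNA pools, correlated in their deviations at 0.553 to 0.839, and those of different numbers at -0.548 to 0.158. The p-values reflect only variation among these pools, and the number of pool pairs limits the precision. The fit was tested on simulated data. Alternatives changed the background correction, normalization, block, dye orientation, filter, probe rule and pairs included.

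Symbols come from the platform annotation, which names 21790 probes and leaves 22004 unnamed. SELP, a synonym of SEPP1's current symbol and also the symbol of P-selectin, was not counted as SEPP1. Where a gene had several probes, the one with the highest mean intensity stood for it. The genes and lists were chosen with earlier results of these data known. From each list up to 3 called genes per direction of smallest p were named, and 2 for a list with no call. A planned search for the antioxidant response element in promoters was not run, as no promoter sequence was used here.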

Additional observations from a re-analysis of the deposited data

Results flagged for a closer look

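Of 42 sets of 4 pool values of the antioxidant genes (ratios, levels labelled ICM and levels labelled TE of 14 probes), 3 had a pool whose gap to the nearest other exceeded Dixon's 95% limit, as a share of the whole range. Chance gives such a gap in about 1 in 20 sets. The dimmer PRDX2 probe had a normalized log2 intensity of 11.76 in ICM-labelled pool 1, below 12.37 to 12.40 in the other 3. TXN had 13.73 in TE-labelled pool 1, above 13.39 to 13.44 in the other 3. The dimmer SRXN1 probe had 8.02 in TE-labelled pool 4, below 8.26 to 8.31 in the other 3. The log2 ratios of none of the 14 probes were set apart in this way.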

How the results depend on the processing

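Of 224 values of the 14 probes under 16 alternative settings, 211 lay within 1 SD of the reported log2 ratio and 13 moved more. No called ratio changed sign. Some settings cannot change a log2 ratio: no normalization between arrays, the replicate block with or without a dye term, and the background filter. Their values equal the reported ones by construction, so nothing is read from that part of the agreement. Of 18 settings for the count of called genes, SEPP1 and SRXN1 were called in 14, TXN in 13, GPX4 in 2 and TXNRD1 in 1. The reported calls recur by construction without normalization between arrays and with any probe of the gene.

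Median centring in place of loess gave 0 antioxidant genes higher, 0 list genes higher, 0 lower and 1 probe in all (limma; 7190 probes and 5 antioxidant genes at an unadjusted p under 0.05). Leaving out 1 pool pair gave 0 to 4 antioxidant genes higher and 0 to 0 lower, 0 to 1 list genes higher, 0 to 1 lower and 0 to 828 probes, with 0 probes without pair 2, 3 or 4 (8351, 8731 and 9320 at an unadjusted p under 0.05).

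PRDX2 made 1 gene called lower, against 0, with no background correction, with the replicate block and a dye term, with ICM in Cy5 alone and on probes above the background limit. List genes called higher, against 6, were 16 with the deposited ratios, 23 with the replicate block, 21 with the block and a dye term, 12 on probes above the limit and 16 with spot medians. List genes called lower, against 4, were 8, 10 and 8 in the first 3 of these, and 2 with ICM in Cy3 alone. Probes called, against 1433, were 4029, 5320, 4531, 2810 and 3671 in the same order. The within-pair correlation was 0.036 with the replicate block and 0.438 with the block and a dye term, so the first took the arrays of a pair as nearly independent. Spot medians were chosen after seeing the data. The higher share of calls, 58.6%, was 50.6% with the deposited ratios, 50.4% with ICM in Cy5 alone and 70.6% with ICM in Cy3 alone. The causes were not tested. The promoter search was not run.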
